A study of Mus musculus with 3 samples.

Results

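T-box transcription factors bind DNA through a shared domain, the T-box, and switch developmental programmes on or off. The 8 members described here were Tbx1, Tbx2, Tbx3, Tbx4, Tbx5, Tbx15, Tbx18 and Tbx20, out of 19754 genes that could be named on the array. They were selected on the values of the same comparison: the log2 ratio of Tbx1 was among the highest on the array, and its relatives were listed to place that increase among the family. Every probe that carried a member's gene name was taken, which gave 17 of the 41174 probes. For the members the ratios are therefore a description. How many of them the fit across all probes called is given further on as a count, from which nothing is read.

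The study asked which transcripts depend on Fgfrl1, a receptor of the fibroblast growth factor receptor family that lacks a kinase domain, during early nephron formation. Kidney rudiments of C57BL/6 Fgfrl1-/- embryos were compared with those of C57BL/6 wt littermates at E12.5. Each of the 3 arrays held RNA from 1 pool of Fgfrl1-/- rudiments, labelled with the green dye Cy3, and from 1 pool of wildtype rudiments, labelled with the red dye Cy5, with 6 to 9 rudiments in a pool. The labels do not tie pools to litters, and the part of Fgfrl1 that is disrupted is not given in the sources used here.

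The dyes were swapped on 0 arrays, so dye and genotype cannot be told apart. Arrays 2 and 3 shared a slide, and array 1 lay on a slide of its own, for which the scanner software was older. Taken over all probes, and so not over independent replicates, Pearson's r between the log2 ratios was 0.713 for arrays 2 and 3, 0.106 for arrays 1 and 2, and 0.222 for arrays 1 and 3. All ratios below are log2 ratios of Fgfrl1-/- over wildtype, so that a positive value stands for more RNA in the mutant. In pooled tissue, a lower value can come from fewer cells of a type or from less RNA per cell, and these cannot be told apart.

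The probe of Fgfrl1 itself gave -1.21, -1.51 and -1.83 on arrays 1, 2 and 3, a mean of -1.52 ± 0.31 (SD, n = 3) with an adjusted p of 0.0332 in limma's moderated test, a call that held in 10 of 16 alternative settings. It was lower in the mutant channel on every array, as the labels have it, although it was not known whether the probe lies in the disrupted part. Of 11 marker genes of the kidney rudiment, 10 were well above background in both channels on all arrays, among them Six2, Wt1 and Pax2. The exception was Ret, the receptor of the ureteric tip, whose single named probe never rose well above background in the mutant or the wildtype channel.

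As background, Tbx1 patterns the pharyngeal apparatus and the outflow tract of the heart and is the gene most closely tied to DiGeorge syndrome. Tbx2 and Tbx3 are close relatives that act mainly as repressors, and Tbx18 marks the mesenchyme around the ureteric stalk, from which the ureteric smooth muscle forms. Tbx4 and Tbx5 belong to the limb and heart fields, Tbx15 to limb and skeletal mesenchyme, and Tbx20 to the heart.

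The array measured each gene through probes of 60 bases. The first 30 bases of the probes that gave a measurable signal are shown 5′ to 3′, since the values below rest on them, as the file of array 1 lists them. All are in lower case because no part of them was singled out. Positions are those of the file headers on mm8.

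Tbx1, chr16:18495286-18495345, minus strand: gtgtagatatgtgtagatactgtagatact
Tbx2, chr11:85657187-85657246, plus strand: ccggccgggagtcgcccaagtgaggggctg
Tbx3, chr5:119945081-119945140, plus strand: ggcatcttactaacccatgtgaggttttca
Tbx18, chr9:87502625-87502684, minus strand: gtgcagaagctggttaaatcttagtatatt
Tbx18, second probe, chr9:87502862-87502921, minus strand: tccagaataatcagactctaaaagtaaaat

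Over the whole 60 bases, the share of G and C was 43.3% in the Tbx1 probe, 38.3% in the Tbx3 probe and 35% in each Tbx18 probe. The Tbx2 probe stood apart with 73.3%. The longest stretch that a probe shared with a probe of another gene was 13 bases for Tbx1, 12 for Tbx2, 15 for Tbx3, and 12 and 15 for the Tbx18 probes. No gene annotation of mm8 was used here, so exons and untranslated regions are not assigned.

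The members fell into those with a signal and those without. A probe was counted as measurable where the scanner software marked it as well above background in both channels on all 3 arrays, which held for 22824 of the 41174 probes. Of the 17 member probes 5 met this, and they belonged to 4 genes, Tbx1, Tbx2, Tbx3 and Tbx18. In the wildtype channel, the other 12 probes passed this mark on 0 arrays. In the Fgfrl1-/- channel, 5 of these 12 were above background on 0 arrays, and 6 of the remaining 7 only on array 1. Over all probes, that channel had 80.2% well above background on array 1, against 57.1% and 63.9% on arrays 2 and 3. Array 1 had the lowest median background in that channel, and also another slide and software version. The reason was not tested.

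**Figure D1:**
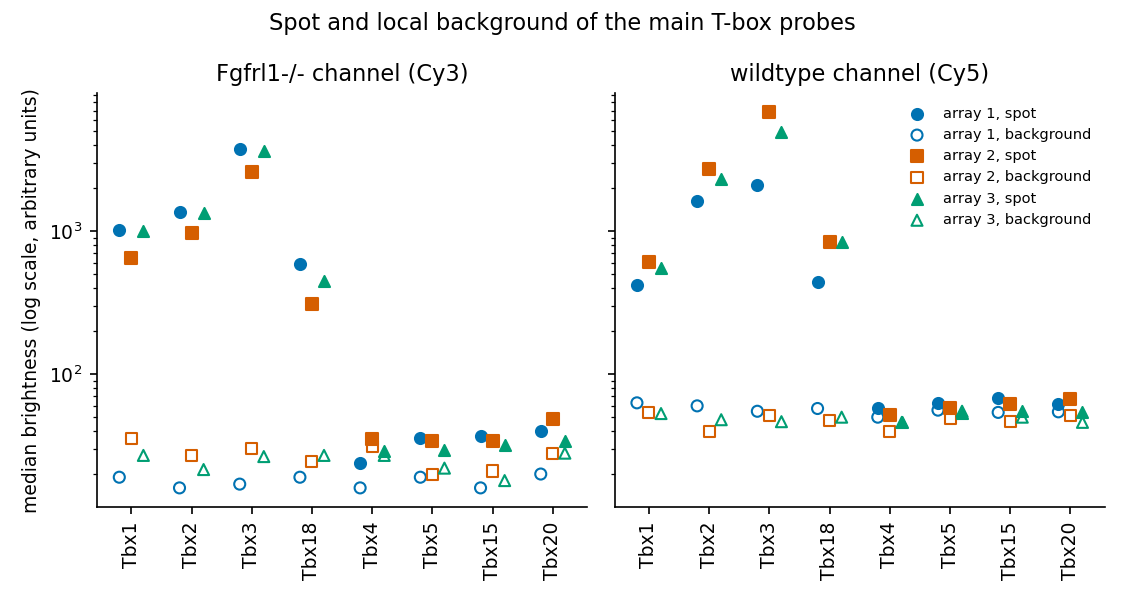
Median brightness of the spot (filled) and of its local background (open) for the probe with the highest signal of each of the 8 genes, in the Fgfrl1-/- channel (left) and the wildtype channel (right), on a log axis in arbitrary units, with 1 symbol per array. Tbx1, Tbx2, Tbx3 and Tbx18 lie far above their background on all 3 arrays, while the spots of Tbx4, Tbx5, Tbx15 and Tbx20 lie close to theirs. Brightness is not comparable between genes.

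For Tbx1, the mutant spot had a brightness of 1018, 651.5 and 997.5 on arrays 1, 2 and 3, where its local background was 19, 35.5 and 27. In the wildtype channel the brightness was 418, 607.5 and 556, over 63, 54 and 53. Before any normalization the mutant spot was thus brighter than the wildtype spot on each array. The channels differ in scale, since the median spot of all probes had 97, 60 and 68 in the mutant channel and 99.5, 113 and 107.5 in the wildtype channel, so that raw brightness is not itself a ratio.

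After background correction and normalization, the log2 ratio of Tbx1 was 1.09, 1.21 and 1.33. The mean was 1.21 ± 0.12 (SD, n = 3), or 2.31-fold more in Fgfrl1-/-. It had rank 3 from the top among the 41174 probes, behind probes of Chl1, a neural cell adhesion molecule, with 1.41 and of Sparcl1, a matricellular protein, with 1.25. Of all probes, 4 exceeded a log2 ratio of 1 on each of the 3 arrays, and the Tbx1 probe was 1 of them. Tbx1 was measured by a single probe, so no other probe could be set beside it.

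Tbx2, a transcriptional repressor, lay on the other side of 0. Its spot brightness was 1354, 976.5 and 1333 in the Fgfrl1-/- channel and 1633, 2738 and 2311 in the wildtype channel. The log2 ratio was -0.41, -0.25 and -0.24, with a mean of -0.30 ± 0.096 (SD, n = 3). All 3 arrays gave a negative value.

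Tbx3, the closest relative of Tbx2, had a brightness of 3750.5, 2619 and 3658.5 in the mutant channel and of 2118, 6804.5 and 4990.5 in the wildtype channel. The log2 ratio was 0.71, -0.072 and 0.14, with a mean of 0.26 ± 0.41 (SD, n = 3). Array 1 stood high and arrays 2 and 3 lay near 0 on either side of it. The mean turned to -0.089 where arrays were centred on their median in place of loess. A second Tbx3 probe, 11.7 kb away at chr5:119933349-119933408, was not well above background in the wildtype channel of any array and gave 0.016 ± 0.063 (SD, n = 3).

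Tbx18, the factor of the ureteric mesenchyme, had a brightness of 587, 310 and 452 in the mutant channel and of 444, 847 and 848 in the wildtype channel. The log2 ratio was 0.21, -0.28 and -0.38, with a mean of -0.15 ± 0.31 (SD, n = 3). Its second probe, which lies 177 bases from the first, gave 0.095, -0.30 and -0.088, a mean of -0.098 ± 0.20 (SD, n = 3). Both probes were above 0 on array 1 and below 0 on arrays 2 and 3.

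Among the measurable members, Tbx1 was therefore highest, followed by Tbx3, Tbx18 and Tbx2. The place of Tbx1 at the top follows from its choice for a high ratio, so nothing is read from it. The lowest array of Tbx1 was 0.38 above the highest array of any other measurable member probe, which was array 1 of Tbx3. Tbx3 and Tbx18 are neighbours in this order whose values overlapped, and so did the values of Tbx18 and Tbx2. Over the measurable probes, the SD over arrays had a median of 0.16. The SD of Tbx1 lay at the 35.2 percentile and that of Tbx2 at the 25.3 percentile, whereas those of Tbx3 and Tbx18 lay at 90.6 and 83.3.

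**Figure D2:**
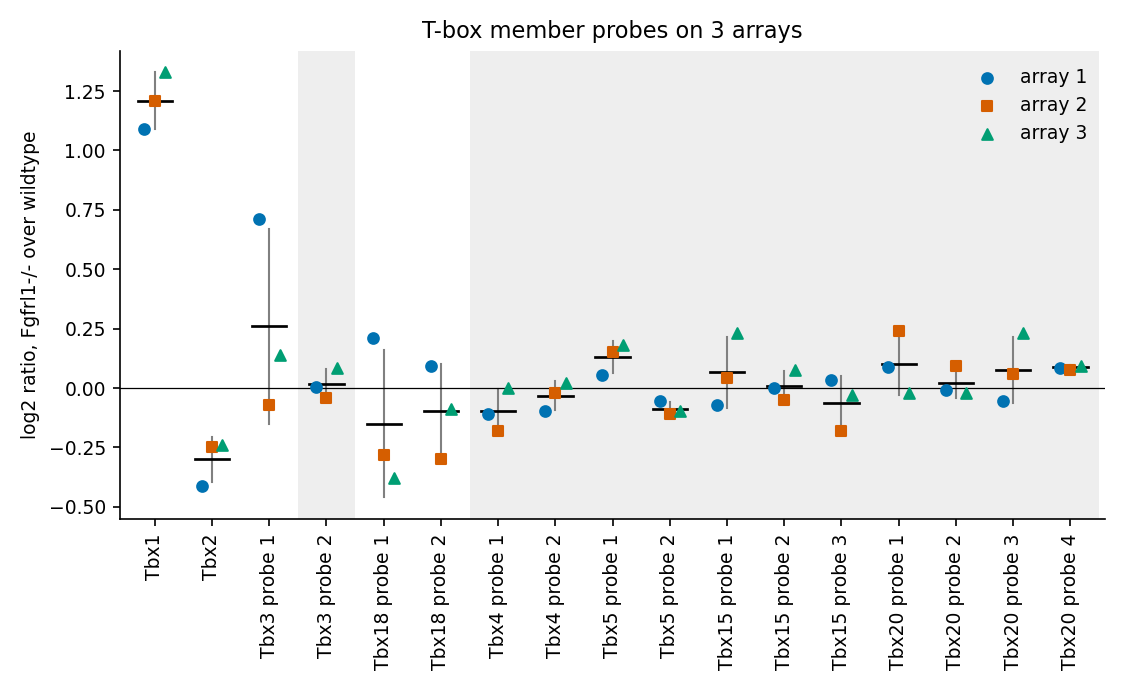
Log2 ratio of Fgfrl1-/- over wildtype for all 17 member probes, with 1 symbol per array, the mean as a black line and the SD over 3 arrays as a grey line; grey shading marks the 12 probes with no wildtype signal well above background on any array. The values of Tbx1, which was chosen for its high ratio, lie between 1.09 and 1.33, all above the other members. Tbx3 and Tbx18 show array 1 apart from arrays 2 and 3.

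Tbx4, Tbx5, Tbx15 and Tbx20 gave no measurable signal. Over the 12 dim probes, which include the second Tbx3 probe, the brightness ranged from 22 to 48.5 in the mutant channel, over a background of 14 to 39, and from 46 to 69 in the wildtype channel, over 39.5 to 64. Their mean log2 ratios ranged from -0.096 to 0.13. For the 7 of them that passed in the mutant channel on at least 1 array, the level in the mutant over the lowest level that counted as above background, or the probe's own where higher, was at most 1.09-fold, reached by Tbx5. For each of the 7 it came to the ratio of the probe's own mutant and wildtype levels, down to 0.959-fold for a Tbx15 probe. It is therefore no least fold, and it sets no upper limit on a difference. A difference in these genes was not detectable at this brightness.

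Of the dim genes, Tbx4 had 2 probes with means of -0.096 and -0.032, and Tbx5 had 2 probes with 0.13 and -0.086. Tbx15 had 3 probes with 0.067, 0.0092 and -0.061. Tbx20 had 4 probes with 0.10, 0.087, 0.076 and 0.021. The probes of Tbx5 and Tbx15 thus lay on both sides of 0. With the scanner software's own ratios, the main probe of Tbx5 reached 1.07 and that of Tbx20 1.09, whereas with no background subtraction they had -0.029 and 0.19.

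Some members lie close together in the genome, and their ratios could be set side by side. Tbx2 and Tbx4 lie on chromosome 11 on the same strand, with 70.2 kb between their main probes and 0 other named genes measured between them. Tbx3 and Tbx5 lie in the same way on chromosome 5, 199.6 kb apart and with 0 other named genes between. In both pairs the first gene was measurable and the second was not.

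Counted with limma's moderated test at an adjusted p below 0.05 over all probes, 1 member gene was called higher, Tbx1, and 0 were called lower. Over all 41174 probes, 0.289% were called higher and 0.398% lower. Among the main probes of the 19754 named genes, a main probe being the one with the highest mean signal, these shares were 0.466% and 0.618%. Nothing is read from the member count, because the members came from this comparison. The call of Tbx1 was lost without array 2 and without array 3, where 0 probes of the whole array were called, so that the calls of all genes named here were lost there too. Without array 1, Tbx2 with -0.25 and Tbx18 with -0.33 were called lower as well, in a setting that called 10.1% of all probes lower and 8.49% higher.

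**Figure D3:**
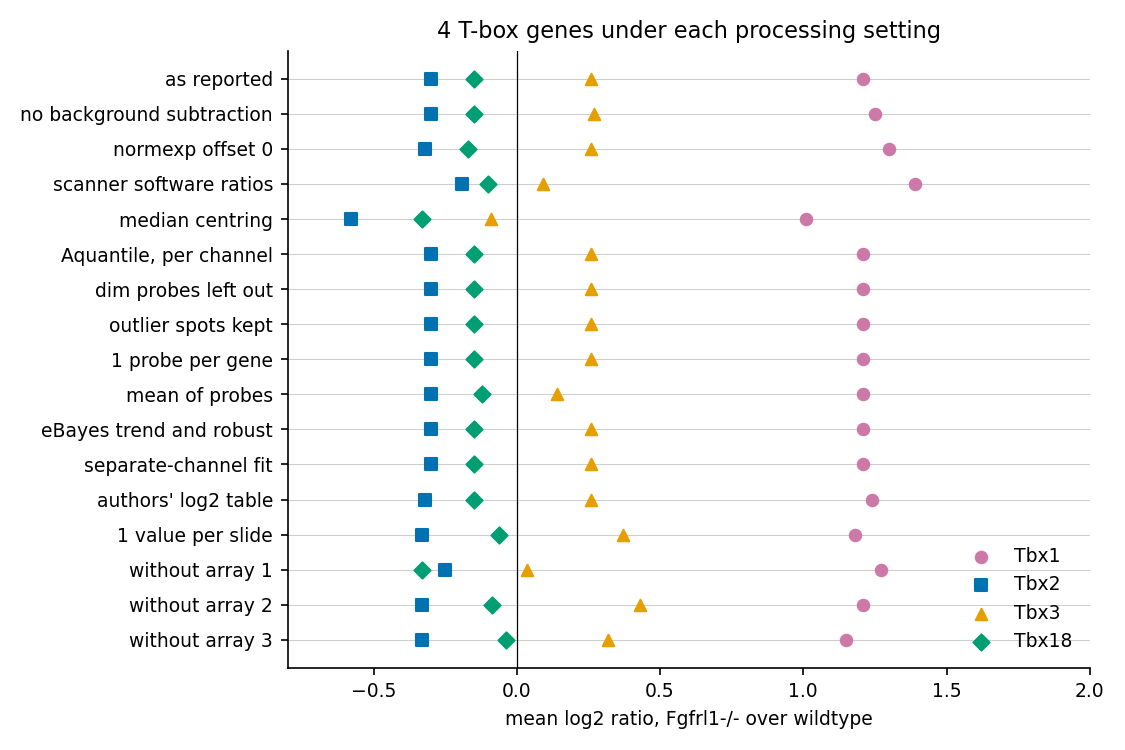
Mean log2 ratio of Fgfrl1-/- over wildtype of the main probe of Tbx1, Tbx2, Tbx3 and Tbx18 as reported and under 16 other processing settings, with 1 symbol per gene. Tbx1 stays between 1.01 and 1.39 and Tbx2 between -0.58 and -0.19, whereas Tbx3 crosses 0 under median centring, with -0.089.

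The remaining T-box genes of the mouse, which the selection did not list, were tested as the rest of the family. They were Tbx6, Tbx10, Tbx19, Tbx21, Tbx22, T, Eomes, Tbr1 and Mga, 9 genes with 13 probes, so that 17 T-box genes and 30 probes were found in all. By limma's test 0 of the 9 genes were called higher and 0 lower, with 1 gene, Tbx6, at an unadjusted p below 0.05. Such a p was reached by 15.9% of all probes and by 20.7% of the main probes of named genes, against which this count and those of the lists below are to be read. The lowest adjusted p was 0.259. Only 4 of these probes, of Tbx6, Tbx21 and Mga, were well above background in both channels on all arrays, and 6 probes were above background in neither channel of any array.

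Tbx6, a factor of the presomitic mesoderm, gave log2 ratios of 0.31, 0.14 and 0.18, a mean of 0.21 ± 0.09 (SD, n = 3, limma adjusted p = 0.259). Mga, which carries both a T-box and a domain for partnering with Max, gave 0.50, 0.045 and 0.11 on its main probe, a mean of 0.22 ± 0.24 (SD, n = 3, limma adjusted p = 0.421). A second measurable Mga probe gave 0.22 ± 0.16 (SD, n = 3, limma adjusted p = 0.305). These 3 probes were above 0 on every array.

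Tbx21, the factor of type 1 helper T cells, had a mean of -0.13 ± 0.11 (SD, n = 3, limma adjusted p = 0.51). Tbx19, a pituitary factor, was not well above background in the wildtype channel and had -0.16 ± 0.018 (SD, n = 3, limma adjusted p = 0.351). The other dim genes had mean log2 ratios of 0.13 for Eomes, a factor of the early mesendoderm, -0.055 for Tbr1, a factor of cortical neurons, -0.037 for T, the notochord factor Brachyury, and 0.021 for Tbx10. The 3 probes of Tbx22, a palate factor, had -0.022 to -0.017.

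The ratio of Tbx1 was set beside those of the genes around it on chromosome 16. The 9 nearby genes reported here lay up to 280.7 kb away on one side of the Tbx1 probe and up to 245.9 kb away on the other. Of these 9 genes, 0 were called higher and 0 lower by limma's test, with 1 at an unadjusted p below 0.05, and all were well above background in both channels on all arrays. The nearest was Gnb1l, whose probe lies 17.3 kb away, with a log2 ratio of 0.10 ± 0.16 (SD, n = 3, limma adjusted p = 0.668).

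On the other side, Gp1bb, a platelet glycoprotein, lies 39.3 kb away and had 0.22 ± 0.37 (SD, n = 3, limma adjusted p = 0.551). Septin5, a cytoskeletal GTPase, lies 40.2 kb away and had 0.17 ± 0.049 (SD, n = 3, limma adjusted p = 0.324). The largest mean ratio among the 9 in either direction was that of Cdc45, a helicase subunit of DNA replication, with -0.48 ± 0.66 (SD, n = 3, limma adjusted p = 0.417). It came from array 1, with -1.24, against -0.086 and -0.12 on arrays 2 and 3.

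Cldn5, a tight junction protein of endothelium, had -0.30 with a limma adjusted p of 0.204. Tango2 with -0.17, Arvcf with 0.063, Txnrd2 with -0.049 and Ufd1 with -0.084 were the others. No array of these 9 genes reached the lowest array of Tbx1, a gene chosen because its ratio was among the highest on the array. Nothing is read from this.

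**Figure D4:**
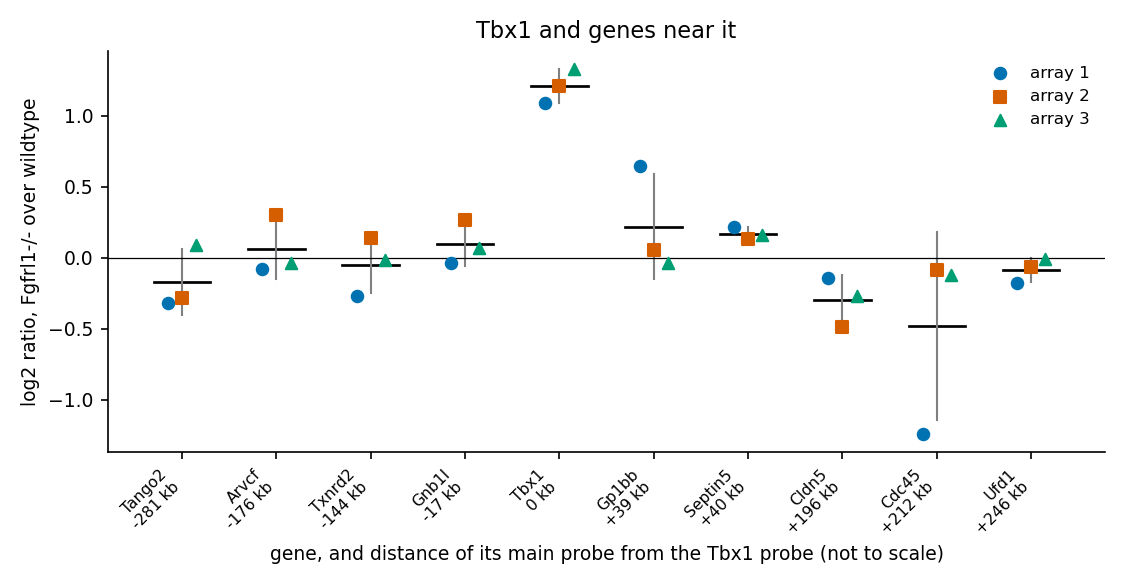
Log2 ratio of Fgfrl1-/- over wildtype of Tbx1 and of 9 genes near its probe, in chromosomal order and not to scale, with 1 symbol per array, the mean as a black line and the SD over 3 arrays as a grey line. The values of Tbx1, which was chosen for its high ratio, lie between 1.09 and 1.33, above every array of these 9 genes. Cdc45 shows -1.24 on array 1.

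Genes known to work with Tbx1 in the pharyngeal and cardiac fields were listed as a network of 22, of which 21 were measured. By limma's test 1 was called higher and 1 lower, and 6 had an unadjusted p below 0.05. The median log2 ratio was 0.03, against 0.0069 over the main probes of all named genes. The gene called higher was Foxc1, a forkhead factor that acts upstream of Tbx1, with 0.84, 0.73 and 0.57, a mean of 0.71 ± 0.14 (SD, n = 3, adjusted p = 0.0429). The gene called lower was Fgf8, a ligand downstream of Tbx1 in the pharynx and an early nephron gene in the kidney, with -1.66, -2.23 and -2.26, a mean of -2.05 ± 0.34 (SD, n = 3, adjusted p = 0.0259). Foxc1 and Fgf8 thus stood on opposite sides, each with the same sign on all arrays. The call of Foxc1 held in 5 of the 16 alternatives, and was lost among others with no background subtraction, median centring and the authors' log2 table, with ratios from 0.28 to 0.79. That of Fgf8 held in 11.

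The other regulators upstream of Tbx1 were Shh, a secreted ligand, with a log2 ratio of 0.20 (limma adjusted p = 0.574), and Foxc2, a forkhead factor, with -0.048 (adjusted p = 0.856). Foxa2 was well above background on 1 array in the mutant channel and on 0 in the wildtype channel, so its ratio of 0.033 is no measure of a change or of its absence. Among enzymes of retinoic acid, which is known to lower Tbx1, the synthetic enzyme Aldh1a2 had 0.27 (limma adjusted p = 0.218). The degrading enzymes Cyp26b1 and Cyp26a1 had -0.56 (limma adjusted p = 0.0978) and -0.30 (adjusted p = 0.167), and Cyp26c1 was not found among the named probes. Cyp26a1 was negative on all arrays, but well above background in the mutant channel only on array 1.

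Fgf10, the second ligand of the network, had -0.13 (limma adjusted p = 0.623). Eya1, a transcriptional coactivator that also serves the kidney mesenchyme, had -0.42 (limma adjusted p = 0.194). Crkl, an adaptor that cooperates with Tbx1, had 0.021 (limma adjusted p = 0.949). None of these 3 passed the test.

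Targets that Tbx2 and Tbx3 are known to repress formed a list of 9 genes, of which 0 were called higher and 1 lower by limma's test and 4 had an unadjusted p below 0.05, with a median log2 ratio of 0.03. The gene called lower was Bmp2, a secreted growth factor, with -0.83, -0.81 and -1.0, a mean of -0.88 ± 0.10 (SD, n = 3, adjusted p = 0.0336). It was well above background on all arrays in the wildtype channel but on 1 array in the mutant channel, and its call held in 9 of the 16 alternatives. The other 3 were Gja1, a gap junction protein, with -0.51 (limma adjusted p = 0.0559), Ndrg1, a differentiation-related gene, with 0.47 (adjusted p = 0.0668), and Cdh1, the epithelial cadherin, with 0.34 (adjusted p = 0.126). Each of these had the same sign on all arrays, and they lay on both sides of 0. The cell cycle inhibitors Cdkn1a and Cdkn1b had 0.01 (limma adjusted p = 0.981) and 0.19 (adjusted p = 0.378).

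Genes of the ureter, in whose mesenchyme Tbx2, Tbx3 and Tbx18 are normally made, formed a list of 18 that holds mesenchymal genes and the epithelial ligands Shh, Wnt7b and Wnt9b, and limma's test called 0 of them higher and 0 lower, with 4 at an unadjusted p below 0.05 and a median log2 ratio of 0.07, or -0.03 with median centring. Its members ranged from -0.17 to 0.73. At the top was Wnt9b, a ligand of the ureteric epithelium, with 0.73 ± 0.25 (SD, n = 3, limma adjusted p = 0.0661). Partners of the limb and heart T-box factors were covered by 15 genes, of which 0 were called in either direction by limma's test and 1 had an unadjusted p below 0.05, with a median of 0.08 and a range from -0.13 to 0.24.

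The shifts of cell type markers were recorded beside these values. Cortical stroma was covered by 7 genes, all well above background, and 6 of them were higher in Fgfrl1-/- on every array, with a median log2 ratio of 0.37. The list median was 0.33, 0.46 and 0.36 on arrays 1, 2 and 3, and over all arrays it was 0.08 with median centring. Of these genes, 1 was called higher, Pdgfra, a growth factor receptor of mesenchyme, with 1.02 ± 0.093 (SD, n = 3, limma adjusted p = 0.0274), and 0 were called lower, while all 7 had an unadjusted p below 0.05. The call of Pdgfra held in 9 of the 16 alternatives. Foxd1, the defining factor of the cortical stroma, had 0.90 ± 0.29 (SD, n = 3, limma adjusted p = 0.057), and Tcf21 had -0.48 (adjusted p = 0.127). The part of the stroma in the ratio of Tbx1 was not tested.

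The macrophage markers also stood high, with a median log2 ratio of 0.55 over 4 genes, each above 0 on all arrays, and 1 called higher, C1qa, a complement component, with 0.65 (limma adjusted p = 0.0432), a call that held in 5 of the 16 alternatives. Kidney rudiment markers had a median of -0.08 over 11 genes, of which 3 were called lower by limma's test, namely Gdnf with -0.83 (adjusted p = 0.0421), Cited1 with -0.78 (adjusted p = 0.0442) and Wnt11 with -0.76 (adjusted p = 0.0408). Their calls held in 8, 7 and 7 of the 16 alternatives. By limma's test 6 kidney rudiment genes and 3 macrophage genes had an unadjusted p below 0.05. On the other side, Gata3 and Calb1 of the kidney rudiment list had 0.43 (limma adjusted p = 0.0953) and 0.37 (adjusted p = 0.173). They were the 2 genes of this list above 0 on every array, against 6 below 0 on every array. Those 6 include Ret, which was well above background in neither channel of any array, so its sign is no measure of a change. The list median became -0.30 under either of 2 alternatives, the scanner ratios and median centring.

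Among markers of other tissues and cell types, those of limb and body wall had a median of 0.08 over 9 genes, skeletal muscle 0.0 over 9, gonad and adrenal -0.01 over 6, neural cells -0.07 over 7, endothelium -0.01 over 6, lung and heart 0.03 over 6 and erythroid cells -0.08 over 4. In limb and body wall, 4 genes were above 0 on every array and 1 was below 0 on every array. Some of these medians moved with the scaling: with median centring, erythroid cells had -0.59, endothelium -0.21 and lung and heart 0.12, and with the scanner software's ratios, limb and body wall had 0.30 and gonad and adrenal 0.26. In these 7 lists 0 to 4 genes had an unadjusted p below 0.05, the most in limb and body wall, 0 genes were called higher by limma's test, and 1 was called lower, Myl7, an atrial myosin light chain, with -0.73 (limma adjusted p = 0.0403), a call that held in 7 of the 16 alternatives. Their part in the T-box ratios was not tested.

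The genes whose 3 ratios lay closest to those of Tbx1 were ranked by Euclidean distance over the 3 arrays, among probes well above background throughout. In order they were Pdgfra at a distance of 0.339, Phyhd1 at 0.371, Chl1 at 0.40, Sparcl1 at 0.431 and Sfmbt2 at 0.444. The Sparcl1 probe here, with a mean log2 ratio of 1.03, is not the Sparcl1 probe that ranked above Tbx1. Pdgfra gave 0.99, 0.95 and 1.13 on arrays 1, 2 and 3. With 3 arrays, this measure says little more than that a gene had a similarly high ratio on each.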

How the data were processed

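For each of the 3 arrays, the authors deposited the Agilent Feature Extraction output (version 9.5.3.1 for array 1, 10.5.1.1 for arrays 2 and 3): raw intensities of spot and background per channel, and the software's log10 ratio of wildtype over knock-out. They also deposited a table of log2 ratios, made with R and Bioconductor. Its steps are not given in the sources used here. Its direction, knock-out over wildtype, was found against the scanner ratios, it correlated with the ratios used here at 0.966, 0.895 and 0.913 on arrays 1, 2 and 3, and its column medians were -0.018, 0 and 0.003, so its exact centring is not known.

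Of 45018 spots, 1639 control spots were left out. Median intensities were corrected with limma 3.58.1 in R 4.3.3 (normexp, offset 50), loess was run within each array, flagged outlier spots (107, 113 and 138) were dropped, and spots of 1 probe were averaged. Gene names and sequences stood only in the file of array 1, and arrays 2 and 3 were joined by feature number and probe name. Names were updated with RefSeq of GRCm38.p6, which named 33116 of 41174 probes, while positions stay on mm8. The log2 ratio was fitted with lmFit (intercept only) and eBayes and tested against 0, 2-sided, with Benjamini-Hochberg adjustment over all 41174 probes. The fit was tested on simulated data with independent noise per array, for whether mean estimates recovered planted log2 ratios. Error rates for arrays that share a slide were not tested. No spot was saturated. In the knock-out channel 80.2%, 57.1% and 63.9% of probes were well above background, and 60.9%, 64.9% and 64.7% in the wildtype channel. The number of arrays limits the precision. The labels name separate RNA pools, so p-values measure the spread between pools and arrays together.

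The members and lists were chosen with earlier results of these data known. Named were all T-box genes, list genes that passed the test (up to 3 in each direction), any gene of the Tbx1 network by its role, the 5 nearest genes on each side of Tbx1, Fgfrl1 and the 5 nearest patterns. Cdkn1a, Cdkn1b, Gja1, Ndrg1, Cdh1, Gata3, Calb1, Wnt7b, Wnt9b, Foxd1, Tcf21, Six2, Wt1, Pax2 and Ret were chosen after their values were seen. Some genes that this rule names are not reported here. The 16 alternatives and their effect are given in the closing section.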

Additional observations from a re-analysis of the deposited data

How the results depend on the processing

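Across the 16 alternatives the log2 ratio of Tbx1 ranged from 1.01 with median centring to 1.39 with the scanner software's ratios, and from 1.15 to 1.27 when single arrays were left out. Tbx1 was called in 11 of the 16, and 0 T-box members were called higher with 1 value per slide, the scanner software's ratios or a normexp offset of 0, where 0 probes in all were called, against 119 higher and 164 lower as reported, and 3449, 6118 and 4852 probes had an unadjusted p below 0.05. Leaving out single arrays gave 0 to 1 members called higher and 0 to 2 called lower, with 0 without array 2 or array 3 and Tbx2 and Tbx18 lower without array 1. Among all alternatives, 0 of the other T-box genes were called. Of the genes in the 4 lists around the T-box genes, 1 was called higher and 2 lower as reported. This became 0 higher with median centring, no background subtraction, the scanner ratios, an offset of 0, Aquantile, dim probes left out, the authors' log2 table or 1 value per slide, and 3 higher with 1 probe per gene or the mean of probes. It became 0 lower with an offset of 0, the scanner ratios or 1 value per slide, 1 lower with median centring or Aquantile, 3 lower with 1 probe per gene, and 4 lower with the mean of probes. Without single arrays it ranged from 0 to 7 higher and from 0 to 8 lower, with the highest counts without array 1 and 0 without array 2 or array 3. Among the neighbours of Tbx1, 0 to 1 were called lower, the 1 without array 1. Over all probes, the counts called higher and lower were 72 and 117 with no background subtraction, 2 and 91 with median centring, 3 and 19 with Aquantile, 14 and 46 with dim probes left out, 387 and 336 with 1 probe per gene, 346 and 328 with the mean of probes, 226 and 237 with the separate-channel fit, 4 and 32 with the authors' table and 3494 and 4172 without array 1. The cause was not tested. The slide as a random block could not be fitted. No paired analysis was possible because all arrays form 1 group, in which each ratio already pairs the pools of an array.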
